A study of Mus musculus with 12 samples.

Results

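The genes described here are 10 mouse genes of the unfolded protein response of the endoplasmic reticulum (ER) and of the integrated stress response: Atf4, Atf3, Ddit3, Trib3, Chac1, Asns, Xbp1, Hspa5, Dnajb9 and Herpud1. They were taken by symbol from a table of estimated counts for 55281 genes in gonadal white adipose tissue (GWAT), the fat pad beside the epididymis. All 10 were found and all 10 passed the filter on low counts, and Ddit3 was listed under a second identifier that had 0 counts in all 12 libraries and was not used. The study compared male mice with both Hoip alleles floxed that carried the Cre transgene AdipoQ.Cre (HoipA-KO) with mice floxed in the same way without Cre (WT), on a control diet (CD, 14% fat) or a high-fat diet (HFD, 60% fat). Diets were given for 16 weeks from 6 weeks of age and tissue was taken at 22 to 24 weeks. Each of the 4 groups has 3 libraries, and each library holds the pooled RNA of 3 mice. Cre was driven by the adiponectin promoter, so the deletion was made in adipocytes, while the libraries hold RNA of every cell type of the fat pad. All animals, controls included, were homozygous for the floxed allele, and the effect of that allele alone was not measured.

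ER stress is sensed by the kinases PERK and IRE1 and by ATF6. PERK, like the kinases GCN2, PKR and HRI, phosphorylates the translation factor eIF2, which lowers general protein synthesis while ATF4 is translated more, and ATF4 then drives genes of amino acid supply and stress such as Asns, Chac1, Trib3, Atf3 and Ddit3. IRE1 splices the Xbp1 transcript, and XBP1 and ATF6 drive genes of folding and degradation in the ER such as Hspa5, Dnajb9 and Herpud1. Adipocytes secrete large amounts of protein, and both arms are known to be active in fat tissue in obesity. Gene-level counts measure neither the translation of Atf4 nor the splicing of Xbp1.

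The promoters of 5 of the genes are shown because they hold the letters by which both arms are known to act, and because Atf3, Asns and Chac1 are the genes whose transcripts differed between groups. Each is the 250 bases before the RefSeq transcription start on GRCm38.p6, written 5′ to 3′ on the strand of the gene. Capitals mark a match to the ER stress response element (ERSE, the letters CCAAT and CCACG with a spacer of any bases of fixed length between them), to its second form (ERSE-II, ATTGG and CCACG with 1 base between them) or to the C/EBP-ATF response element that ATF4 binds (CARE, TGATGNAA), searched on both strands.
Atf3 (chr1:191183334-191183583, minus strand, CARE): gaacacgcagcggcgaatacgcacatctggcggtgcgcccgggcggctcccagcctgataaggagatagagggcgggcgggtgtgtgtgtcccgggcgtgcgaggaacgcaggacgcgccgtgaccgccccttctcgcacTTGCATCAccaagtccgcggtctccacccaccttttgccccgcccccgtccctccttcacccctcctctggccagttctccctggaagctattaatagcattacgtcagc
Asns (chr6:7693210-7693459, minus strand, CARE): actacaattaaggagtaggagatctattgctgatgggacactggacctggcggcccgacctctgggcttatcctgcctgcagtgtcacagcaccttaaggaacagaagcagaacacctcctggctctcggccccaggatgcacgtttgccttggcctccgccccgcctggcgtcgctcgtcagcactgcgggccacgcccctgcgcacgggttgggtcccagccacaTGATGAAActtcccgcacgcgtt
Chac1 (chr2:119350992-119351241, plus strand, CARE): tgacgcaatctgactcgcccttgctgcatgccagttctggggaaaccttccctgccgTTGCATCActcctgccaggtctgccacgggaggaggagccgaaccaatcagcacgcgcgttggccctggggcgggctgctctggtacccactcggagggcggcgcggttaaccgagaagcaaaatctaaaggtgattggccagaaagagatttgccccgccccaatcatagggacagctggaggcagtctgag
Hspa5 (chr2:34771840-34772089, plus strand, ERSE): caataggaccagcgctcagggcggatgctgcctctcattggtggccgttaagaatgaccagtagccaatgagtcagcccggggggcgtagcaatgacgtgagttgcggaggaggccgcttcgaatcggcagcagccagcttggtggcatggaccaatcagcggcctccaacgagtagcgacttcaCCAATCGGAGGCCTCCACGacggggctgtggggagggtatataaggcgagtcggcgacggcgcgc
Herpud1 (chr8:94386179-94386428, plus strand, CARE and ERSE-II): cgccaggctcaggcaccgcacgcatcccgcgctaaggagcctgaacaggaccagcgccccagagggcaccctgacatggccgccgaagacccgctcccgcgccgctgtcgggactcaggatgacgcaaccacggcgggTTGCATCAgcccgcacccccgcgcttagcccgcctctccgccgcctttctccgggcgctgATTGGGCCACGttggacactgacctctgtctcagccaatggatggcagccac

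The CARE letters were found 110 to 103 bases before the start of Atf3, 193 to 186 bases before that of Chac1, 23 to 16 bases before that of Asns and 112 to 105 bases before that of Herpud1. They were thus in 4 of the 10 promoters, and in 3.45% of 32851 mouse promoters of the same length. The ERSE was in the promoter of Hspa5 alone among the 10, 65 to 47 bases before the start, and in 0.113% of all promoters. The ERSE-II was in that of Herpud1 alone, 52 to 42 bases before the start, and in 0.0304% of all promoters. The letters of an AP-1 site (TGANTCA) were found in Ddit3 and Hspa5 and in 6.75% of promoters, and those of a cyclic AMP response element (TGACGTCA) in none of the 10 and in 1.55% of promoters. No match overlapped another, and Atf4, Trib3, Xbp1 and Dnajb9 had none of these letters in this window. A match is a description of the sequence and was not tested as a binding site. On GRCm38 the whole genes lie at chr15:80255184-80257541 (Atf4), chr1:191170296-191218039 (Atf3), chr10:127290774-127296288 (Ddit3), chr2:152337422-152344032 (Trib3), chr2:119351229-119354381 (Chac1), chr6:7675169-7693254 (Asns), chr11:5520659-5525893 (Xbp1), chr2:34771970-34777547 (Hspa5), chr12:44205559-44210326 (Dnajb9) and chr8:94386438-94395377 (Herpud1).

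**Figure D1:**
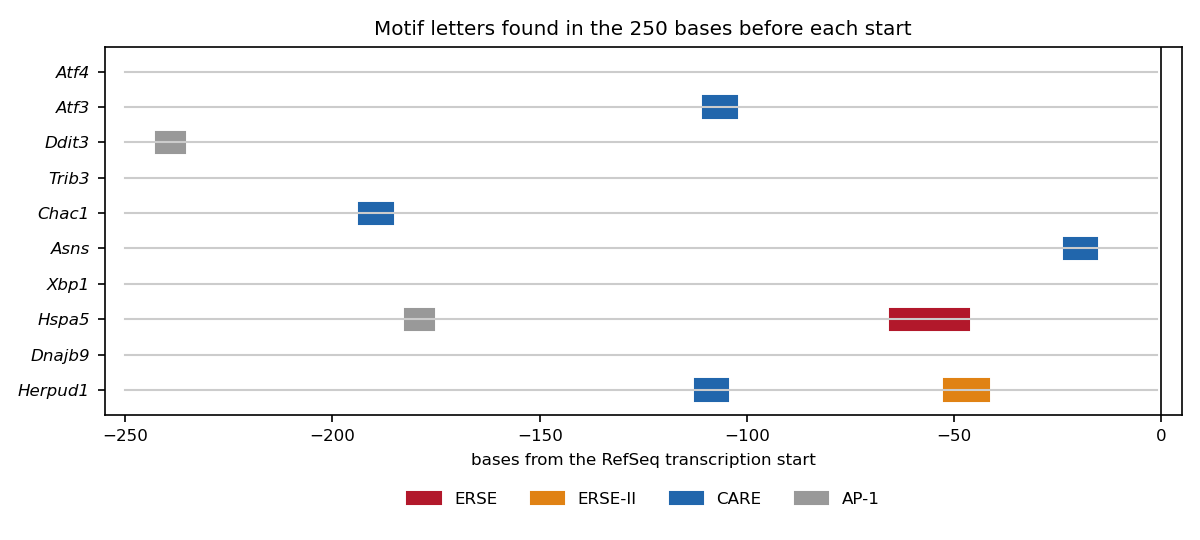
Positions of motif letters in the 250 bases before the transcription start of each of the 10 genes, in bases from the start, with 1 row per gene and 1 colour per motif. CARE letters stand in Atf3, Chac1, Asns and Herpud1, the ERSE in Hspa5 and the ERSE-II in Herpud1.

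The libraries held 30513500 to 60540260 counts. Levels are given as CPM, the counts scaled to a common library total, after TMM normalization over all 12 libraries, and tests used edgeR's quasi-likelihood test in 11 libraries with Benjamini-Hochberg adjustment over 18427 genes. WT CD replicate 3 was left out of the tests, as in the comparisons that the authors deposited. Its level is given for each of the 10 genes and for some of the others. Its profile across genes correlated with the other WT CD libraries at r = 0.785 and 0.794, while those correlated with each other at 0.907 and libraries within the other groups at 0.971 to 0.993. WT CD replicate 2 held transcripts of the epididymis, with Crisp1, a secreted protein of its epithelium, at 12605 CPM. Crisp1 was at 1309 CPM in HoipA-KO HFD replicate 1 and 0 to 1.78 CPM in the other 10 libraries. Some of these held other epididymal transcripts. Gpx5 was at 88.99 CPM in HoipA-KO HFD replicate 3 and Lcn5 at 64.59 CPM in HoipA-KO CD replicate 3. The mean log2(CPM + 1) of 12 epididymal genes was 3.86 in WT CD replicate 2 and 2.91 in HoipA-KO HFD replicate 3. It was 1.52 in HoipA-KO CD replicate 3, 1.12 in HoipA-KO HFD replicate 1 and 0.97 in WT CD replicate 3. In the remaining libraries it was at most 0.83. Rnf31, the symbol of Hoip, was at 20.8, 21.2 and 12.8 CPM in WT CD and 18.1, 17.8 and 21.8 CPM in HoipA-KO CD, and at 18.5, 18.2 and 20.0 CPM in WT HFD and 20.1, 18.8 and 22.5 CPM in HoipA-KO HFD. Its log2 differences were -0.08 on CD and 0.13 on HFD (edgeR adjusted p = 0.654 and 0.491), and gene-level counts do not show the floxed exons apart from the rest. Defining markers of adipocytes were present in every library, with Adipoq at 203 to 3542 CPM. The p-values measure the spread between pools.

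HoipA-KO against WT on CD asks what loss of HOIP in adipocytes does without a high-fat diet. Of the 10 genes, Atf3 was higher, Asns was lower and 8 did not pass the test, which is 2 called where 37.7% of all genes tested were called. Among all genes 18.9% were higher and 18.8% lower. The median log2 difference of the 10 was -0.05, against -0.06 over all genes tested. The libraries of the compared groups did not overlap for 5 of the 10 genes, against 54.3% of all genes. With all 12 libraries 3 of the 10 were called on CD, where 34.7% of all genes were.

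Atf3, a transcription factor of the ATF/CREB family that many stresses and inflammatory signals induce, gave the largest difference. It was at 8.77, 5.80 and 3.36 CPM in WT CD replicates 1 to 3 and at 287, 376 and 317 CPM in HoipA-KO CD. The lowest HoipA-KO library was thus far above the highest WT library. The log2 difference was 5.53 ± 0.67 (SE; 46.3-fold; edgeR adjusted p = 0.000528, n = 2 against 3), with a 95% interval of 4.04 to 7.02. With all 12 libraries it was 5.77 (edgeR adjusted p = 0.000146).

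Asns, which makes asparagine from aspartate and is a standard target of ATF4, went the other way. It was at 91.5, 52.9 and 83.8 CPM in WT CD and at 24.7, 32.7 and 25.2 CPM in HoipA-KO CD, with no overlap. It fell by 1.34 ± 0.27 on the log2 scale (SE; 2.54-fold lower; edgeR adjusted p = 0.00425), and by 1.47 with all 12 libraries. WT CD replicate 3 lay between the other WT CD libraries. WT CD replicate 2, the library with the highest mean of epididymal genes, had the lowest level of the 3.

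The other genes of the integrated stress response did not pass the test on CD. Atf4 itself was at 165, 139 and 71.5 CPM in WT CD and at 183, 191 and 192 CPM in HoipA-KO CD, so that all 3 HoipA-KO libraries were above all WT libraries by a small margin. Its log2 difference was 0.35 with a 95% interval of 0.01 to 0.70 (edgeR adjusted p = 0.0989). Chac1, which degrades glutathione, was at 4.95, 2.30 and 2.82 CPM in WT CD and at 2.32, 2.26 and 2.48 CPM in HoipA-KO CD. WT CD replicates 1 and 3 stood above all HoipA-KO CD libraries while replicate 2 was among them, and the log2 difference was -0.58 (95% interval -1.29 to 0.13). Without WT CD replicate 2 it was -1.03 and passed the test (edgeR adjusted p = 0.015), and without replicate 1 it was 0.07 and did not.

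Ddit3, which encodes the transcription factor CHOP, was at 23.4, 11.3 and 34.7 CPM in WT CD and at 21.9, 22.6 and 28.9 CPM in HoipA-KO CD. The WT libraries spread more widely than those of HoipA-KO, and the log2 difference of 0.54 had a 95% interval of -0.17 to 1.25. Trib3, a pseudokinase induced by ATF4 and CHOP, was at 11.5, 5.08 and 4.21 CPM in WT CD and at 8.52, 9.50 and 11.5 CPM in HoipA-KO CD. Here too the groups overlapped, with a log2 difference of 0.30 and an interval of -0.43 to 1.02. Without WT CD replicate 1 both passed the test, Ddit3 at 1.15 (edgeR adjusted p = 0.0221) and Trib3 at 0.99 (edgeR adjusted p = 0.0264). Ddit3 overlaps Mars on the opposite strand by 68 bases, and the strand setting of the counting was not given in the sources used here, so reads of the shared bases may be of either gene.

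None of the 4 genes of the IRE1 and ATF6 arms passed the test on CD. Hspa5, which encodes the main ER chaperone BiP, was at 450, 1547 and 583 CPM in WT CD and at 713, 1189 and 762 CPM in HoipA-KO CD. WT CD replicate 2 had the highest level of all 12 libraries and the other WT CD libraries were below every HoipA-KO CD library. The log2 difference was -0.12 with an interval of -1.14 to 0.91, and without WT CD replicate 2 it was 1.03 and did not pass either.

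Xbp1 was at 257, 222 and 95.4 CPM in WT CD and at 181, 208 and 190 CPM in HoipA-KO CD. Its log2 difference was -0.27 (95% interval -0.64 to 0.10), and with all 12 libraries 0.01, since WT CD replicate 3 was the lowest of all. Herpud1, a membrane protein of ER-associated degradation, was at 79.8, 80.9 and 134 CPM in WT CD and at 67.8, 62.4 and 65.0 CPM in HoipA-KO CD. The groups did not overlap, and the log2 difference of -0.26 (edgeR adjusted p = 0.164) passed the test when WT CD replicate 3 was included, at -0.59 (edgeR adjusted p = 0.0491), and among protein-coding genes, at -0.40 (edgeR adjusted p = 0.0487). Xbp1 passed among protein-coding genes as well, at -0.40 (edgeR adjusted p = 0.0495). These scalings moved the median of the genes they share with the main test from -0.05 to -0.21 with all 12 libraries and from -0.02 to -0.16 among protein-coding genes. Dnajb9, a BiP co-chaperone, was at 35.0, 59.6 and 77.8 CPM in WT CD and at 45.1, 59.0 and 34.1 CPM in HoipA-KO CD, with a log2 difference of 0.01 (95% interval -0.61 to 0.64). Herpud1 shares 535 bases with the antisense gene Gm15890, with the same limit as for Ddit3.

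**Figure D2:**
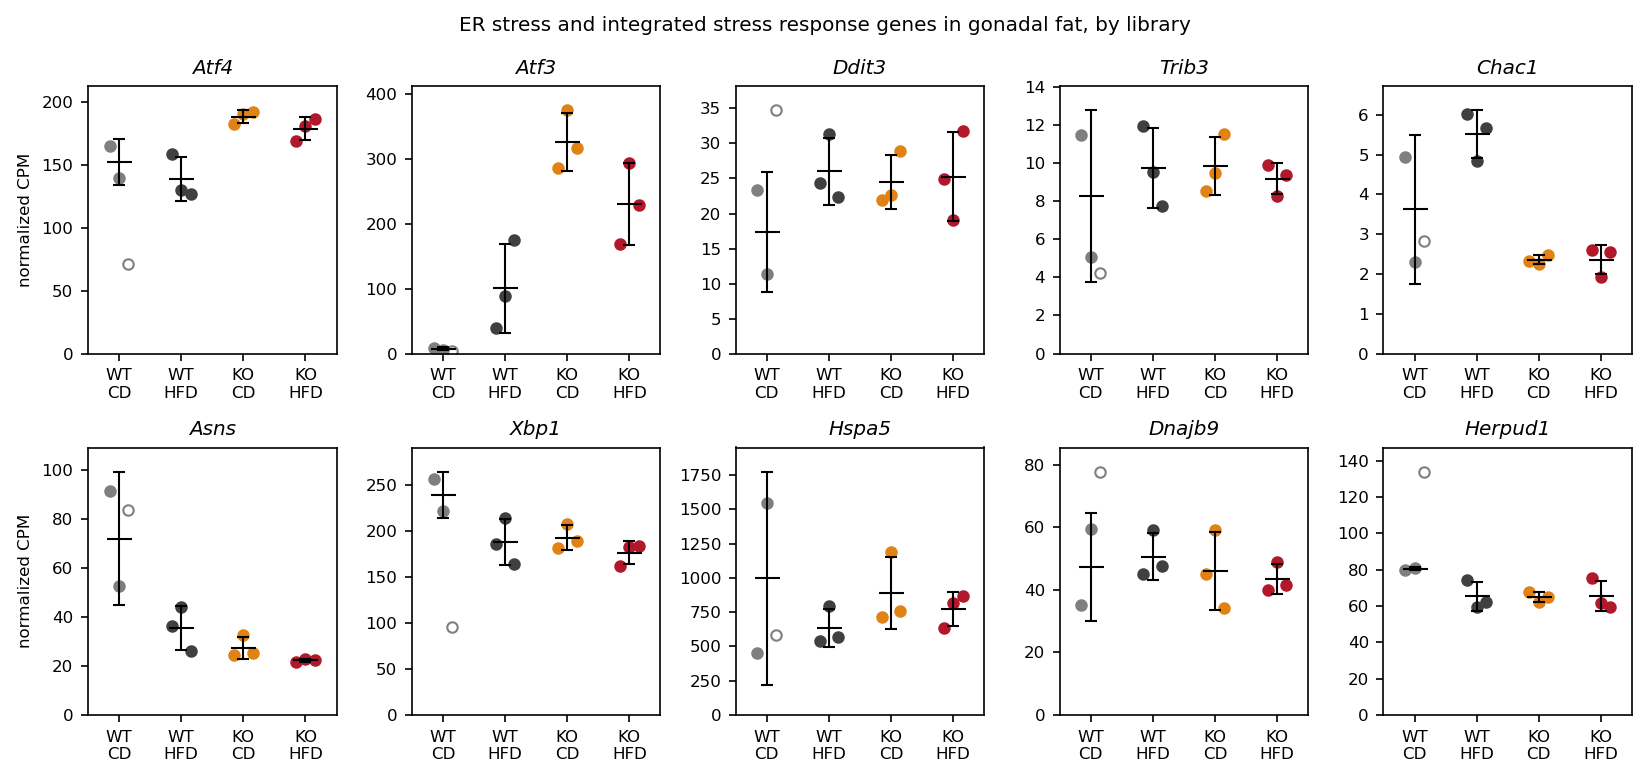
TMM-normalized CPM of the 10 genes in each library of the 4 groups, with the group mean and SD as bars over the libraries tested. Hollow points are WT CD replicate 3, which the tests and bars leave out. Atf3 is under 9 CPM in the WT CD libraries and over 280 CPM in those of HoipA-KO CD, while Asns is highest in WT CD.

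On HFD the question is how the genotypes differ in the fat pad on that diet. The study reports that HoipA-KO mice reached a weight plateau on HFD and that their white fat expanded less. The groups were thus not equally obese, and a changed response to diet is the interaction given below. Chac1 was lower in HoipA-KO and the other 9 genes did not pass the test, which is 1 of 10 called where 11.8% of all genes tested were (4.2% higher and 7.62% lower). The median log2 difference of the 10 was -0.05, against 0.06 over all genes tested. The libraries did not overlap for 3 of the genes, Atf4, Chac1 and Asns, against 44.3% of all genes. In the fit of all 12 libraries edgeR called none of the 10 on HFD, where 2.78% of all genes were.

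Chac1 was at 6.01, 4.84 and 5.67 CPM in WT HFD and at 2.60, 1.93 and 2.54 CPM in HoipA-KO HFD. Every WT HFD library except replicate 2 also exceeded the 4.95 CPM of the highest WT CD library, and all 6 HoipA-KO libraries lay between 1.93 and 2.60 CPM. It fell by 1.21 ± 0.29 on the log2 scale (SE; 2.31-fold lower; edgeR adjusted p = 0.0317, n = 3 against 3). The size was similar with all 12 libraries at -1.22, where the adjusted p was 0.0681 in edgeR, and leaving out WT HFD replicate 1 or 2, HoipA-KO CD replicate 1 or HoipA-KO HFD replicate 2 or 3 gave -1.09 to -1.30 with adjusted p-values of 0.0563 to 0.111. DESeq2 gave an adjusted p of 0.000604. Chac1 had 1899 counts over all libraries, the fewest of the 10 genes.

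Atf3 was at 38.7, 88.3 and 175 CPM in WT HFD and at 169, 294 and 229 CPM in HoipA-KO HFD. The highest WT library was just above the lowest HoipA-KO library. The log2 difference of 1.22 had a 95% interval of 0.18 to 2.25 and an edgeR adjusted p of 0.108. Without WT HFD replicate 3 it was 1.90 and passed the test (edgeR adjusted p = 0.0202).

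Atf4 was at 159, 130 and 127 CPM in WT HFD and at 169, 181 and 187 CPM in HoipA-KO HFD. As on CD the HoipA-KO libraries were all above those of WT by a small margin, with a log2 difference of 0.39 (95% interval 0.08 to 0.69; edgeR adjusted p = 0.0921). Asns was at 36.6, 44.0 and 26.2 CPM in WT HFD and at 21.7, 22.8 and 22.6 CPM in HoipA-KO HFD. All 3 HoipA-KO libraries were below those of WT, with a log2 difference of -0.65 (95% interval -1.20 to -0.11; edgeR adjusted p = 0.102). Without WT HFD replicate 3 it was -0.82 and passed the test (edgeR adjusted p = 0.0405), as it did without WT CD replicate 1 or 2 (0.0425 and 0.0472). DESeq2's Wald test called Atf4 (adjusted p = 0.0079), Atf3 (0.0268), Chac1 and Asns (0.0494) on HFD, where it called 24.2% of all genes.

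Ddit3 was at 22.3 to 31.4 CPM in WT HFD and 19.0 to 31.8 CPM in HoipA-KO HFD, and Trib3 at 7.75 to 11.96 and 8.28 to 9.92 CPM. Their log2 differences were -0.03 (95% interval -0.65 to 0.60) and -0.07 (-0.71 to 0.57). The genes of folding and degradation did not pass the test on HFD either, and their intervals differed in width. Herpud1 was at 59.5 to 74.2 CPM in WT HFD and 59.6 to 75.2 CPM in HoipA-KO HFD, with a log2 difference of 0.02 and the narrowest interval of the 10, -0.26 to 0.30. The log2 differences were -0.07 (-0.41 to 0.26) for Xbp1, 0.30 (-0.62 to 1.22) for Hspa5 and -0.20 (-0.76 to 0.36) for Dnajb9.

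**Figure D3:**
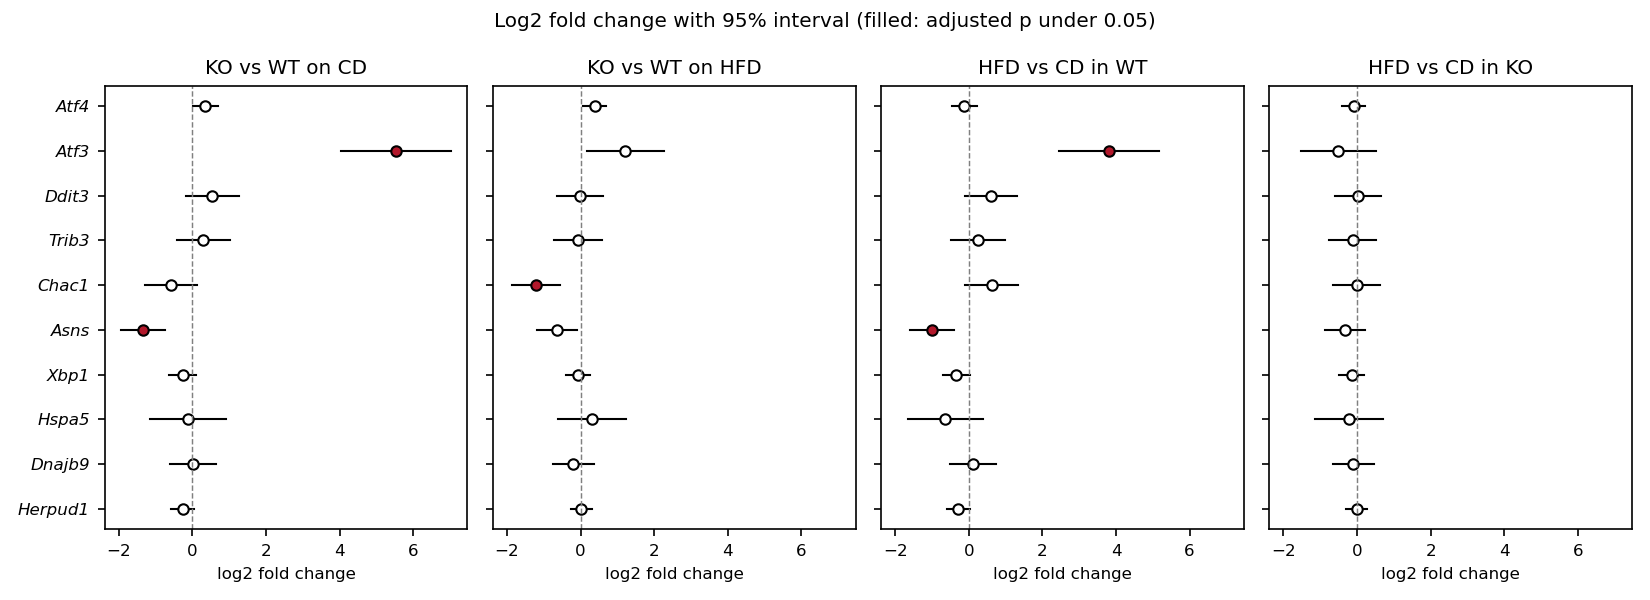
Log2 fold change of the 10 genes with its 95% interval in 4 comparisons, from edgeR in 11 libraries. Filled points passed an adjusted p of 0.05, namely Atf3 and Asns on CD and between the diets in WT, and Chac1 on HFD.

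HFD against CD in WT asks what the high-fat diet does to these genes in mice without Cre. It shares the WT CD libraries with the comparison of genotypes on CD, so that the values of those libraries enter both. Atf3 was higher on HFD, Asns was lower and 8 genes did not pass the test, where 14.8% of all genes were called (9.35% higher and 5.47% lower). The median log2 difference of the 10 was -0.01, against 0.00 over all genes. Libraries did not overlap for 4 genes, against 42.6% of all genes. The count was again 2 in all 12 libraries, where 15% of all genes were called.

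For Atf3 the lowest WT HFD library, at 38.7 CPM, was above the 8.77 CPM of the highest WT CD library. It rose by 3.80 ± 0.61 on the log2 scale (SE; 14.0-fold; edgeR adjusted p = 0.00674, n = 2 against 3). The WT HFD libraries spread over a wide range, with a mean of 101 ± 69.1 CPM (SD, n = 3). When only the libraries of WT were fitted, the difference was 3.73 with an adjusted p of 0.0861, in a fit that called 0 genes of 17200.

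Asns was at 26.2 to 44.0 CPM in WT HFD, below all WT CD libraries. It fell by 1.01 ± 0.27 on the log2 scale (SE; 2.01-fold lower; edgeR adjusted p = 0.0349). This rested on WT CD replicate 1 more than on the other libraries, since without it the difference was -0.54 (edgeR adjusted p = 0.145). Without WT HFD replicate 1 or 3 or HoipA-KO CD replicate 1 the adjusted p was 0.0542 to 0.0695, and with the replicate number as a block it was 0.0833.

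Chac1 was at 4.84 to 6.01 CPM in WT HFD against 2.30 to 4.95 CPM in WT CD, with a log2 difference of 0.62 (95% interval -0.11 to 1.35). Without WT CD replicate 1 it was 1.29 and passed the test (edgeR adjusted p = 0.0164), as did Ddit3 at 1.23 (0.0225), Trib3 at 0.97 (0.0356) and Hspa5 at -1.26 (0.0218). Atf4, at 127 to 159 CPM on HFD, had a log2 difference of -0.12 (95% interval -0.46 to 0.22). For Xbp1 and Herpud1 both tested WT CD libraries were above all WT HFD libraries, at log2 differences of -0.33 (-0.70 to 0.04) and -0.29 (-0.60 to 0.03). Dnajb9 had a log2 difference of 0.11 (-0.52 to 0.74).

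HoipA-KO mice on HFD were then compared with those on CD. None of the 10 genes passed edgeR's test, and none had an unadjusted p under 0.05. Of all genes 0% were called, 415 or 2.25% had an unadjusted p under 0.05, and DESeq2 called 7 (0.038%). Asns was the only one of the 10 whose libraries did not overlap, at 24.7 to 32.7 CPM on CD and 21.7 to 22.8 CPM on HFD (log2 difference -0.32, 95% interval -0.86 to 0.22), where 5.92% of all genes did not overlap. Atf3 was at 287 to 376 CPM on CD and 169 to 294 CPM on HFD, a log2 difference of -0.51 (95% interval -1.53 to 0.51). The intervals of Atf4, Herpud1 and Xbp1 lay within 0.5 of 0 on the log2 scale, while that of Hspa5 reached from -1.14 to 0.70.

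The difference between the diets differed between the genotypes for Atf3. The interaction was -4.31 ± 0.74 on the log2 scale (SE; edgeR adjusted p = 0.0256), with 3.91% of all genes called (0.331% higher and 3.58% lower). HFD thus went with a rise of 3.80 in WT, and the value in HoipA-KO, which started from a higher level on CD, was -0.51. The interaction was -4.58 with all 12 libraries (edgeR adjusted p = 0.0131), where 2.78% of all genes were called. Leaving out WT CD replicate 2, WT HFD replicate 2, any 1 HoipA-KO CD library or HoipA-KO HFD replicate 1 or 3 took its adjusted p to 0.0573 to 0.092. None of the other 9 genes passed the test of the interaction in the 11 libraries, although Chac1 did without WT CD replicate 1, at -1.29 (edgeR adjusted p = 0.0424). In the order of mean levels Atf3 stood at 326 ± 45.2 CPM in HoipA-KO CD, 231 ± 62.7 in HoipA-KO HFD, 101 ± 69.1 in WT HFD (SD, n = 3 each) and 7.29 ± 2.10 in WT CD (SD, n = 2). Neighbours in this order overlapped except WT HFD and WT CD.

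For Asns the order ran from 72.2 ± 27.3 CPM in WT CD (SD, n = 2) to 35.6 ± 8.93 in WT HFD and, in HoipA-KO, 27.5 ± 4.49 on CD and 22.3 ± 0.60 on HFD (SD, n = 3 each). WT HFD and HoipA-KO CD overlapped and the other neighbours did not. Among the 11 libraries tested Atf3 ranged over 64.8-fold. Its SD on the log2 scale was larger than that of 99.1% of tested genes with a mean of at least 5 CPM. Asns ranged over 4.22-fold, Hspa5 over 3.44-fold, Chac1 over 3.11-fold and Ddit3 over 2.82-fold. Atf4, Xbp1 and Herpud1 varied least, over 1.51-fold, 1.59-fold and 1.36-fold.

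Markers of other cell types moved with Atf3. Of 9 macrophage markers 8 were higher in HoipA-KO on CD and 4 on HFD, and 8 were higher on HFD in WT. Their mean log2(CPM + 1) was 4.82 to 5.37 in WT CD, 6.87 to 8.45 in WT HFD, while HoipA-KO gave 8.87 to 9.06 on CD and 8.66 to 9.21 on HFD. In WT HFD the library with the least Atf3 had the lowest macrophage mean and that with the most Atf3 the highest. With all 12 libraries the count on HFD was 0 of 9. None of the 9 markers was at 0 in any library, and Fcgr1, an Fc receptor of macrophages, was lowest at 2.39 CPM. Whether more cells of a type or more RNA per cell gave these levels cannot be told apart in bulk tissue. The part of macrophage RNA in the difference of Atf3 was not tested.

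Adipocyte markers moved with Asns in part. Of 10 markers 9 were lower in HoipA-KO on CD and all 10 on HFD, while none passed the test between the diets in WT, where Asns fell. In the fit of all 12 libraries 8 passed on CD and 6 on HFD. Their mean log2(CPM + 1) was 9.24 to 10.99 in WT CD, 9.80 to 10.38 in WT HFD, while HoipA-KO gave 7.92 to 8.64 on CD and 7.73 to 8.33 on HFD. The part of the adipocyte markers in the difference of Asns on either diet was not tested. Of 12 immediate early genes, which handling of tissue can raise, 5 were higher in HoipA-KO on CD and 1 on HFD, with Fos at 15.4 to 34.3 CPM in WT CD and 133 to 183 CPM in HoipA-KO CD. Their part in the level of Atf3 was not tested.

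**Figure D4:**
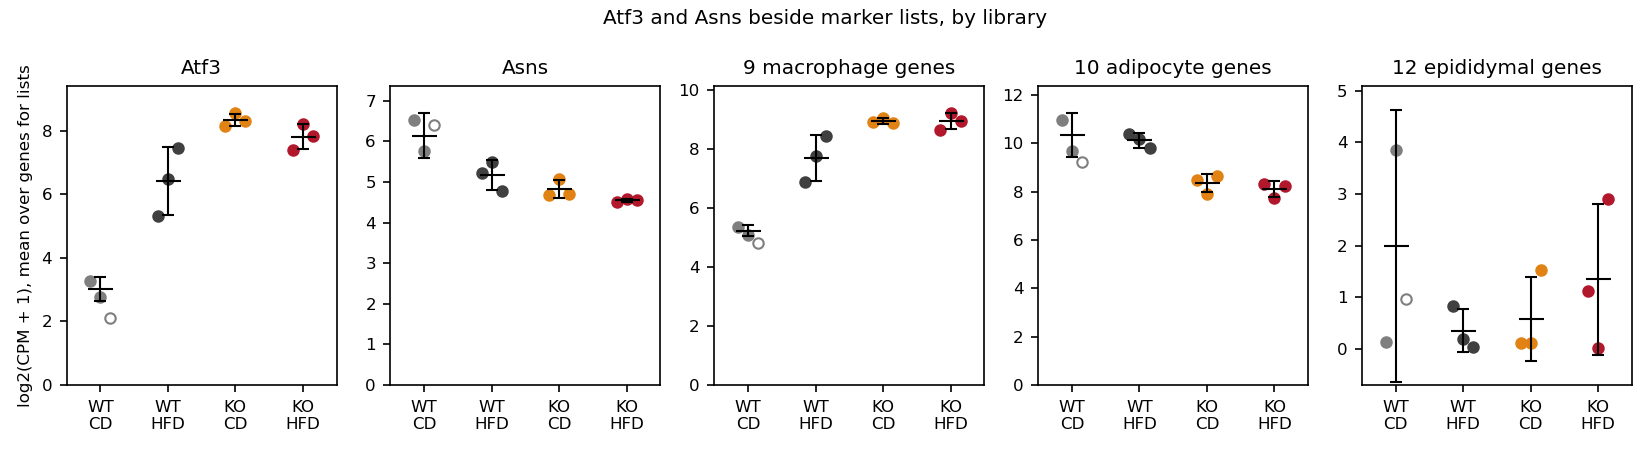
Atf3 and Asns beside the mean of 9 macrophage, 10 adipocyte and 12 epididymal marker genes in each library, all as log2(CPM + 1), with the mean and SD of each group over the libraries tested. Hollow points are WT CD replicate 3. The macrophage mean rises from 4.82 to 5.37 in WT CD to 8.87 to 9.06 in HoipA-KO CD as Atf3 does, and the epididymal mean is highest in WT CD replicate 2 at 3.86.

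For 9 of the genes the 2 genes with the most similar profile over the 11 libraries were found by the root mean square difference of centred log2(CPM + 1), among genes with a mean of at least 5 CPM. For Atf3 these were Cd300a, an inhibitory receptor of myeloid cells, and Anpep, an aminopeptidase of myeloid and other cells, at root mean square differences of 0.13 and 0.14 where the SD of Atf3 was 2.05. Cd300a was at 4.05 to 6.51 CPM in WT CD and 259 to 350 CPM in HoipA-KO CD. For Asns they were Mpc1, a subunit of the mitochondrial pyruvate carrier, and its pseudogene, between which reads may be split. For Hspa5 they were Hyou1 and Hsp90b1, further ER chaperones, at differences of 0.18 and 0.20. Those of Atf4 (Suv39h1 and Mettl6), Ddit3 (Armc6 and Rgl2), Trib3 (Stmp1 and Ltbr), Chac1 (Zfp449 and A630072M18Rik), Dnajb9 (Spty2d1 and Magt1) and Herpud1 (1110059E24Rik and Ankra2) were at 0.08 to 0.17. The SDs of these genes were far smaller than that of Atf3, at 0.22, 0.39, 0.31, 0.48, 0.28 and 0.17 in the same order.

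The other genes of the pathway were described in 7 lists of 109 genes in all, of which 108 were tested. On CD 17 were higher and 13 lower in HoipA-KO, or 27.8% of those tested against 37.7% of all genes. On HFD 2 were higher and 5 lower (6.48% against 11.8%), and between the diets in WT 5 were higher and 6 lower (10.2% against 14.8%). For the diets in HoipA-KO none passed edgeR's test, 3 had an unadjusted p under 0.05 and DESeq2 called none.

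The list of amino acid synthesis and transport genes, to which ATF4 is a known activator, moved in both directions. On CD 5 of 17 were higher, 6 lower and 6 did not pass the test, with a median log2 difference of -0.65. On the higher side Aldh18a1 was at 8.29, 12.3 and 8.37 CPM in WT CD and at 23.5, 30.0 and 26.2 CPM in HoipA-KO CD. Slc3a2 was at 142, 123 and 116 CPM and at 248, 237 and 264 CPM in the same groups. The lower ones named by the largest change were Cbs and Cth, which turn homocysteine into cysteine, at -5.44 and -3.92, and Psph, the last enzyme of serine synthesis, at -2.79. WT CD replicate 2 set much of these values, with Cbs at 84.8 CPM against 7.14 and 3.95 CPM in replicates 1 and 3, Cth at 103 against 12.2 and 3.69 CPM and Psph at 123 against 28.1 and 15.9 CPM. Without it they were -2.75 for Cbs (edgeR adjusted p = 0.0328), -1.68 for Cth (0.101) and -1.36 for Psph (0.0058). That library also had the highest mean of epididymal genes, and the part of epididymal transcripts in these values was not tested.

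On HFD 3 of the 17 were lower and 1 was higher. Phgdh, the first enzyme of serine synthesis, was at 340, 253 and 229 CPM in WT HFD and at 83.3, 38.5 and 56.8 CPM in HoipA-KO HFD, and fell by 2.19 ± 0.31 on the log2 scale (SE; edgeR adjusted p = 0.00871). Psat1, the enzyme after it, was at 188, 190 and 157 CPM and at 94.5, 78.1 and 85.0 CPM, and fell by 1.04. Slc1a5, a transporter of glutamine, was at 1754, 1229 and 1142 CPM and at 369, 214 and 337 CPM, and fell by 2.15. All 3 were lower on CD as well in the 11 libraries, by 2.50, 1.69 and 2.40. On CD Phgdh was at 510, 405 and 158 CPM in WT and at 80.3, 56.5 and 100 CPM in HoipA-KO. Slc1a5 was at 2572, 863 and 672 CPM in WT and at 367, 175 and 410 CPM in HoipA-KO. Psat1 was at 224, 385 and 84.3 CPM in WT and at 87.3, 96.7 and 89.8 CPM in HoipA-KO. For Psat1 WT CD replicate 3, left out of the test, was thus below all HoipA-KO CD libraries. With all 12 libraries the HFD difference of Phgdh passed the test and those of Psat1 and Slc1a5 did not. In WT 2 of the 17 were higher and 3 lower on HFD. Cbs (-3.24) and Psph (-2.17) were lower, and Pycr1, an enzyme of proline synthesis, was higher by 1.20. Without WT CD replicate 2 Cbs was at -0.55 and Psph at -0.75 and neither passed.

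Of 16 further targets of ATF4 and CHOP, 3 were higher and 2 lower on CD. Gdf15, a secreted stress hormone, was at 0.44, 5.41 and 0.78 CPM in WT CD and at 30.0, 33.3 and 34.9 CPM in HoipA-KO CD, a log2 difference of 3.52 ± 0.96 (SE; edgeR adjusted p = 0.018). It was 6.26 without WT CD replicate 2, the highest of the WT libraries. Car6, a carbonic anhydrase with a stress-induced transcript, was at 0.05, 0.09 and 0 CPM in WT CD, at or near the floor of 3 counts in a library (0.06 to 0.07 CPM), and at 0.52 to 0.87 CPM in the 9 libraries of the other groups. Stc2, a secreted glycoprotein, was at 66.6, 15.5 and 17.6 CPM in WT CD and at 7.27, 3.68 and 9.79 CPM in HoipA-KO CD, and its fall of 2.54 on the log2 scale was 1.13 and not called without WT CD replicate 1. On HFD none was higher, while Sesn2, a regulator of mTORC1, fell by 1.21 ± 0.17 on the log2 scale (SE; edgeR adjusted p = 0.00871) and Vldlr, a lipoprotein receptor, by 0.86. Vldlr and Car6 were higher on HFD in WT, Vldlr by 0.99.

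**Figure D5:**
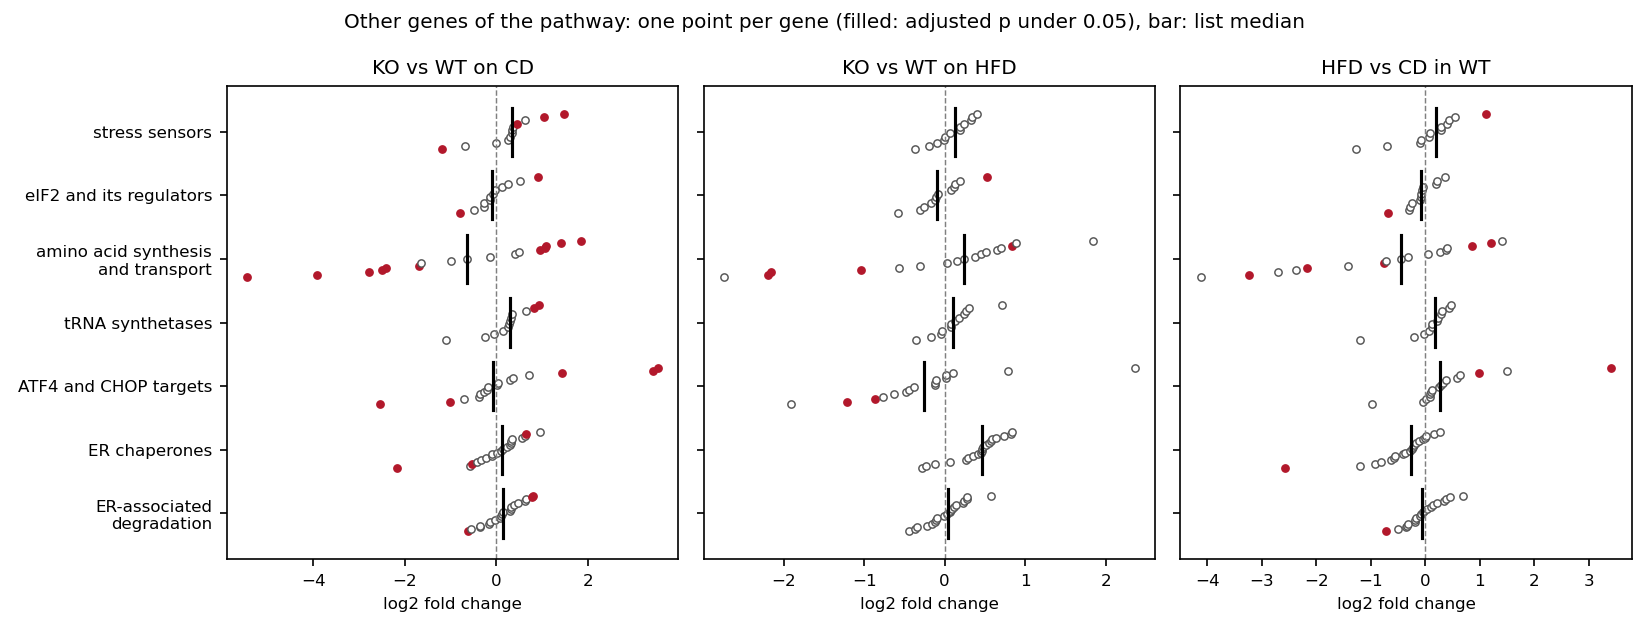
Log2 fold change of each gene of the 7 pathway lists in 3 comparisons, with filled points for an adjusted p under 0.05 and a bar at the median of each list. Amino acid genes spread the most on CD, from -5.44 to 1.86, and Dnajc10 lies lowest among the ER chaperones there, at -2.17.

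Of the 12 genes of stress sensors tested, 3 were higher and 1 lower on CD and none passed on HFD. Creb3l1, a transcription factor cut from the ER membrane like ATF6, was at 18.7, 8.99 and 11.5 CPM in WT CD and at 30.4, 48.2 and 33.6 CPM in HoipA-KO CD, a log2 difference of 1.48 ± 0.33 (SE; edgeR adjusted p = 0.00736), and it was higher on HFD in WT by 1.12. Mbtps2, a protease that cuts ATF6, was higher on CD by 1.05, and Creb3l2 was lower by 1.19, or by 0.34 and not called without WT CD replicate 2. The list of eIF2 and its regulators held 1 gene that was higher on both diets, Ppp1r15a, which encodes GADD34, the ATF4 target that directs dephosphorylation of eIF2. It was at 18.9, 17.6 and 13.4 CPM in WT CD and at 33.5, 28.4 and 37.9 CPM in HoipA-KO CD (log2 difference 0.91 ± 0.16, SE; edgeR adjusted p = 0.0021), and on HFD the difference was 0.52 (0.0389), which was lost with all 12 libraries. Eif2b3, a subunit of the exchange factor of eIF2, was lower on CD by 0.80, and Eif2b4, another, was lower on HFD in WT by 0.68.

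Of 12 tRNA synthetases, which charge tRNAs with amino acids and are targets of ATF4, Cars and Nars were higher on CD, by 0.93 and 0.81, and none passed on HFD or between the diets in WT. Of 20 ER chaperones 1 was higher and 2 lower on CD. None passed on HFD, where 17 of 20 had a positive difference and the median was 0.46 against 0.06 over all genes. The mean log2(CPM + 1) of the 20 was 6.48, 7.56 and 6.75 in WT CD and 6.98, 7.34 and 7.07 in HoipA-KO CD. WT CD replicate 2 thus had the highest mean of all 12 libraries, and the other WT CD libraries were below every HoipA-KO CD library. P4hb, the protein disulfide isomerase, was higher on CD by 0.64 and Sil1, an exchange factor of BiP, lower by 0.54. Dnajc10, another disulfide isomerase, was at 901 CPM in WT CD replicate 2 and at 62.8 to 131 CPM in the other 11 libraries. Its difference of -2.17 on CD turned to 0.77 without that library, and that of -2.57 between the diets in WT to 0.37.

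Of 20 genes of ER-associated degradation 2 were higher and 1 lower on CD and none passed on HFD. Edem2 and Edem1, which trim the sugars of misfolded proteins, were higher by 0.81 and 0.78, and Derl1, a channel of the ER membrane, was lower by 0.62 and not called with all 12 libraries. Selenos, a partner of the Derl proteins, was at 71.8, 105 and 89.8 CPM in WT CD and at 55.9, 58.1 and 45.9 CPM in WT HFD and fell by 0.72. On CD the 2 lists of folding and degradation had medians of 0.11 and 0.14, against -0.06 over all genes. The median of the folding list includes WT CD replicate 2, the library with the highest mean of that list.

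Of the pathway genes named, Creb3l1 and Ppp1r15a on CD and Phgdh and Sesn2 on HFD kept their call under all 24 alternatives. Others lost their call when 1 of the 2 WT CD libraries tested was left out, which leaves 1 library in that group. The size did not always fall with the call. In the 11 libraries Mbtps2 was at 1.05 on CD and Pycr1 at 1.20 between the diets in WT. On CD the difference was not called without replicate 1 for Mbtps2 (1.27), Eif2b3 (-0.27), Derl1 (-0.30), P4hb (0.50) and Edem2 (0.49), nor without replicate 2 for Mbtps2 (0.85), Cars (0.69), Nars (0.61) and Edem1 (0.52). In WT the diet difference of Pycr1 (1.16), Vldlr (0.72), Creb3l1 (0.68), Eif2b4 (-0.31) and Selenos (-0.42) was not called without WT CD replicate 2.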

How the data were processed

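Poly-A selected RNA was sequenced with a stranded kit, and the authors trimmed reads with Trim Galore 0.6.7, aligned them with STAR 2.7.10a and quantified them with Salmon 1.5.2, as the study's methods and the submitters' processing notes give. The deposited table used here holds estimated counts per gene, not normalized. The labels name GRCm38 and the study's methods a human build, and 94.1% of 55281 gene identifiers matched a GRCm38 annotation. Tables of the authors' own DESeq2 comparisons hold fold changes and p-values and were not used.

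Estimated counts were rounded and tested in R 4.3.3 with edgeR 4.0.16 (TMM, filterByExpr, glmQLFit and glmQLFTest) in 1 model of 4 groups over 11 libraries, with Benjamini-Hochberg adjustment over 18427 genes and a threshold of 0.05. WT CD replicate 3, which the authors' comparisons leave out, was added in an alternative. Other alternatives were DESeq2 1.42.0, its size factors, library size alone, other filters, protein-coding genes alone, a replicate block, the groups compared alone, a threshold of 0.01 and each library left out. A floor of 3 counts in a library is 0.0533 to 0.0996 CPM and covers counting error only. At least 30513500 counts lay behind each library, so depth limited only genes near this floor.

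The 10 genes and all lists were chosen with earlier results of these data known. Named were all 10 genes, up to 3 called genes with the largest change per pathway list and comparison, and 2 genes of similar profile per gene, which are not reported here for Xbp1. Phgdh, Psat1, Slc1a5, Aldh18a1 and Slc3a2 on CD, and marker genes, were named beside a result that touches them. Libraries with the same replicate number deviated together between the diets in HoipA-KO, with correlations of 0.14, 0.50 and 0.28 in the 3 pairs, so the numbers were taken to pair these libraries as a hint from the data. In each other pair of groups at least 1 correlation was under 0.1, and over all 15 pairs they were -0.37 to 0.50 (median 0.05). Among 30 pairs of libraries with different numbers they were -0.51 to 0.43, and 8 were over 0.1.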

Additional observations from a re-analysis of the deposited data

Results flagged for a closer look

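The interaction of genotype and diet passed edgeR's test for Atf3, at -4.31 on the log2 scale (adjusted p = 0.0256), so that the effect of HFD differed between WT, where Atf3 rose by 3.80, and HoipA-KO, where the difference was -0.51. Over the alternatives its value was -4.99 to -3.54 and its adjusted p reached 0.092, and when HoipA-KO HFD replicate 3 was left out edgeR called the interaction for 1 gene in all, against 721 in the 11 libraries.

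The interaction also passed for Car6, at -3.31 (edgeR adjusted p = 0.0256), and with all 12 libraries it was -3.89 and did not pass (edgeR adjusted p = 0.0576). The WT CD libraries of Car6 lay at or near the floor of 3 counts, so this fitted value depends on edgeR's prior count and is no bound. Groups of 3 libraries were too small for a formal test of single outlying libraries. Libraries that stood apart, such as WT CD replicate 2 for Dnajc10, are described by their values.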

How the results depend on the processing

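Of the 6 differences called among the 10 genes, those of Atf3 and Asns on CD kept their call in all 24 alternatives, the other 4 lost it in at least 1, and none changed sign. Of the 44 values not called, 29 changed sign and 16 gained a call under at least 1 alternative. On CD 2 genes were called, and 4 among protein-coding genes. On HFD 1 was called, against 2 with library size alone, 4 with DESeq2's test, and 0 with all 12 libraries, with these and the replicate block, and at a threshold of 0.01. For HFD against CD in WT 2 were called, against 1 with the replicate block and at 0.01 and 0 in the fit of WT alone. The interaction was called for 1, and for 0 at 0.01. With each library left out in turn, the counts were 2 to 5 on CD, 0 to 3 on HFD, 1 to 5 between the diets in WT and 0 to 2 for the interaction. Between the diets in HoipA-KO the count was 0 in every alternative. Except where a fit held fewer libraries or genes, the cause of a change was not tested.

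Over all genes edgeR called 6947 on CD, 2179 on HFD (774 higher and 1405 lower), 2731 between the diets in WT (1723 and 1008) and 721 for the interaction. Library size alone gave 1279 higher and 1133 lower on HFD and 2108 and 677 between the diets in WT. On HFD 503 were called with all 12 libraries, 782 with these and the block and 4455 with DESeq2. In WT 1502 were called with the block, 1440 with the block and all 12 libraries, 4551 with DESeq2 and 0 in WT alone. On CD 4208 were called in the groups compared alone, and the interaction was called for 377 with the block, 337 with the block and all 12 libraries and 2374 with DESeq2. Of the pathway genes, the 7 called on HFD were 2 with all 12 libraries and 20 with DESeq2, the 11 in WT were 7 and 23, and the 1 of the interaction was 0 and 6. Replicate numbers were taken to pair libraries between the diets in HoipA-KO only, as a hint from the data. The block was fitted over all 4 groups at once and not for HoipA-KO alone. With it edgeR called 0 genes between the diets in HoipA-KO, as it did without. In the other comparisons, where no pairing was taken, Asns between the diets in WT lost its call under the block. Its value was -0.94 with an edgeR adjusted p of 0.0833. The block changed no other call among the 10 genes in the 11 libraries.

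The values that changed sign were not called in either fit. For the genotypes on CD, Xbp1 was at 0.012 with all 12 libraries and 0.068 with the block as well, Hspa5 at 0.047, 0.17 with both and 0.058 with the block alone, and Rnf31 at 0.076 in both fits of 12 libraries. Dnajb9 on CD was at -0.046 with DESeq2's size factors and test, -0.016 with library size alone, -0.057 without a filter, -0.067 with at least 10 counts in every library, -0.16 among protein-coding genes, -0.32 with all 12 libraries and -0.30 with the block as well. On HFD library size alone put Ddit3 at 0.081, Trib3 at 0.025 and Xbp1 at 0.010, and protein-coding genes put Herpud1 at -0.011. Between the diets in WT, Atf4 was at 0.14 with all 12 libraries and 0.18 with the block as well, Xbp1 at 0.018 in the latter, and Dnajb9 at -0.18 and -0.17 in these fits, -0.0036 among protein-coding genes and -0.0030 in WT alone.

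Between the diets in HoipA-KO, library size alone put Atf4 at 0.014, Dnajb9 at 0.014, Chac1 at 0.10 and Herpud1 at 0.10. Chac1 was at 0.015 with at least 10 counts in every library, 0.0034 among protein-coding genes, 0.0033 with all 12 libraries, 0.0067 in HoipA-KO alone and 4.1e-05 with DESeq2's test. Herpud1 was in the same order at 0.021, 0.0093, 0.0094, 0.012 and 0.0045, at 0.0045 with DESeq2's size factors and at 0.0091 with the block and all 12 libraries. The interaction with all 12 libraries, without and with the block, was -0.22 and -0.25 for Atf4, -0.10 and -0.14 for Xbp1 and 0.10 and 0.092 for Dnajb9.

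With each library left out in turn, values changed sign for the genotypes on CD in Chac1 from -1.03 to 0.067, Creb3l2 from -1.74 to 0.020, Ddit3 from -0.24 to 1.15, Dnajb9 from -0.54 to 0.45, Dnajc10 from -3.09 to 0.77, Hspa5 from -0.77 to 1.03, Rnf31 from -0.28 to 0.21, Trib3 from -0.17 to 1.12 and Xbp1 from -0.37 to 0.31. On HFD they did in Ddit3 from -0.23 to 0.13, Herpud1 from -0.072 to 0.12, Trib3 from -0.20 to 0.10 and Xbp1 from -0.15 to 0.023. In WT they did in Atf4 from -0.24 to 0.42, Ddit3 from -0.15 to 1.23, Dnajb9 from -0.41 to 0.54, Dnajc10 from -3.46 to 0.37, Hspa5 from -1.26 to 0.51, Trib3 from -0.22 to 1.10 and Xbp1 from -0.44 to 0.27. In HoipA-KO they did in Chac1 from -0.065 to 0.10, Ddit3 from -0.17 to 0.19, Dnajb9 from -0.27 to 0.15, Herpud1 from -0.085 to 0.063, Hspa5 from -0.37 to 0.073 and Trib3 from -0.22 to 0.017. For the interaction they did in Atf4 from -0.50 to 0.19, Ddit3 from -1.19 to 0.20, Dnajb9 from -0.64 to 0.32, Hspa5 from -0.73 to 1.05, Trib3 from -1.20 to 0.11 and Xbp1 from -0.41 to 0.37.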

Other observations

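Markers of other cells of the fat pad differed between the same groups. Of 5 mast cell genes 4 were higher in HoipA-KO on CD and 2 on HFD, with a mean log2(CPM + 1) of 1.59 to 2.06 in WT CD and 6.41 to 6.79 in HoipA-KO CD. Of 8 genes of lipid-associated macrophages 7 were higher on CD and 3 on HFD, and of 8 genes of fibroblasts and their progenitors 5 were higher on CD and none on HFD. Of 6 endothelial genes 3 were lower on CD and 4 on HFD, and of 5 mesothelial genes none passed the test. With all 12 libraries none of the mast cell, macrophage or endothelial genes of these lists passed on HFD.

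Of 7 plasma cell genes, cells that depend on Xbp1 for secretion, 2 were higher on CD and 1 on HFD. Among all genes 18.9% were higher on CD and 4.2% on HFD. The mean of the 7 was 2.60 to 3.25 in WT CD and 3.25 to 4.04 in HoipA-KO CD. Sdc1 was at 11.5 to 24.8 CPM in WT CD and 172 to 244 CPM in HoipA-KO CD. Jchain overlapped between these groups, at 18.7 to 24.3 and 14.2 to 60.5 CPM. Igkc overlapped as well, at 81.2 to 180 and 53.4 to 283 CPM. Of 12 epididymal genes 2 were lower on CD, and their mean was 0.02 to 2.91 in the 11 libraries other than WT CD replicate 2.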
